A study of Mus musculus with 2 samples.

Results

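The cells described here were 239 of the 6393 CD11c+ spleen cells captured from wild-type mice, and they were chosen by the C-type lectins that they transcribed. A cell was taken when its unique molecular identifiers (UMIs, the tags that count captured mRNA molecules) for Cd209a, Mgl2 and Clec10a summed to at least 3, when Clec4a4, Clec9a and Xcr1 each had 0 UMIs, when Siglech and Ccr7 each had under 2 and C1qb under 3, and when Top2a and Mki67 together had under 6. These limits left out cells with transcripts of the other cDC2 type, of type 1 cDCs (cDC1s), of plasmacytoid DCs (pDCs), of mature DCs, of macrophages and of dividing cells. The study held 2 samples of 1 condition, WT1 and WT2, here replicates 1 and 2. Both came from adult mice on a C57BL/6J background with the Wild-Type genotype, the labels name no transgene, agent or time point, and the sources used here do not state how many mice each sample held. Spleens were digested, CD11c+ cells were enriched on magnetic beads, and the transcriptome of single cells was captured on the BD Rhapsody system, so the bead step as well as the spleen set the share of each cell type. The chosen cells, called Cd209a cDC2s below, numbered 139 of 3308 in replicate 1 and 100 of 3085 in replicate 2. That was 4.20% (95% Clopper-Pearson interval 3.54 to 4.94, counting error only) and 3.24% (2.65 to 3.93), or 3.72% ± 0.679 (SD, n = 2).

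Conventional DCs take up antigen, cut it into peptides and present these on MHC molecules to T cells. Those of type 2 (cDC2s) present mainly on MHC class II to CD4+ T cells, and in the mouse spleen they fall into a Notch2-dependent kind with high Esam, which sits at the bridging channels and the marginal zone, and a kind with low Esam that shares more transcripts with monocytes. Classical monocytes (Ly6c2, Ccr2) circulate and can become cells with DC features in tissue, whereas non-classical monocytes (Cx3cr1, Ace, low Ly6c2) patrol the vessel wall. CD209a, MGL2 and CLEC10A (MGL1) are calcium-dependent lectins of antigen-presenting cells. CD209a is a mouse relative of the human receptor DC-SIGN, and MGL1 and MGL2 bind galactose and N-acetylgalactosamine residues. CLEC4A4 (DCIR2) marks the other splenic cDC2s.

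Over 27032 genes, 46953398 UMIs were counted in replicate 1 and 43137746 in replicate 2, and no cell index occurred in both samples. The Cd209a cDC2s had a median of 10532 and 10201 UMIs, against 11870 and 11241 over all cells. Scrublet, a doublet caller, marked 60 cells of the series (0.939%), of which 1 was a Cd209a cDC2, and 234 of the 239 passed the cell filter of the study's methods. Markers of other cells were low. The B cell list summed to 247 and 242 CPM (counts per 1000000 UMIs of the group), the T cell list to 2.74 and 9.78 CPM, the NK cell list to 8.91 and 1.96 CPM, the neutrophil list to 3.43 and 12.7 CPM, and the 15 macrophage genes to 586 and 629 CPM against 6048 and 3284 CPM in all other cells.

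Cd209a lay on chr8:3743397-3748984 (GRCm38, minus strand), while Mgl2 (chr11:70130329-70137550) and Clec10a (chr11:70156197-70170834) were neighbours on the plus strand with 18646 bases between them. Of the 50-base words in Mgl2 transcripts, 12.2% also occurred in Clec10a transcripts, and 8.49% the other way round, so a read from such a stretch could not be told between both genes. Cd209a shared no such word with Cd209c or Cd209d. Promoters (RefSeq, GRCm38.p6, 250 bases before to 50 after the start, on the strand of the gene) are printed for Cd209a and Mgl2, lectins of the rule, and for the 2 surface receptors, Ccr2 and Fcgr2b, whose levels set these cells apart from the other cDC2s below. Both strands were searched for GAGGAA, the core of the site bound by PU.1, and for the ETS-IRF composite element, GGAA and GAAA with any 2 bases between them, at which an ETS factor such as PU.1 and an interferon regulatory factor such as IRF4 or IRF8 bind side by side. None of the 4 sequences held both motifs. Capitals mark a match.
Cd209a, chr8:3748935-3749234, minus strand: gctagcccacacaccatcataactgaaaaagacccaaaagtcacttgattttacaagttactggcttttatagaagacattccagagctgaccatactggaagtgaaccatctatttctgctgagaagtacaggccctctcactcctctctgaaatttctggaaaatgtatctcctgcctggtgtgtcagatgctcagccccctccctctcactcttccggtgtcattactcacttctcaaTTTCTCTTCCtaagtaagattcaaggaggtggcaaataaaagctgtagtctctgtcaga
Mgl2, chr11:70130107-70130406, plus strand: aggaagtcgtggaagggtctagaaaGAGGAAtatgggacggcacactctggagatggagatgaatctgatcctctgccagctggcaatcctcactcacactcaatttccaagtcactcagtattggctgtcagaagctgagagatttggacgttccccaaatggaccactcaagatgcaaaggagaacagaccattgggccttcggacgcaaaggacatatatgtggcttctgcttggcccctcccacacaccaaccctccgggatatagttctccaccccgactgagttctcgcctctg
Fcgr2b, chr1:170976022-170976321, minus strand: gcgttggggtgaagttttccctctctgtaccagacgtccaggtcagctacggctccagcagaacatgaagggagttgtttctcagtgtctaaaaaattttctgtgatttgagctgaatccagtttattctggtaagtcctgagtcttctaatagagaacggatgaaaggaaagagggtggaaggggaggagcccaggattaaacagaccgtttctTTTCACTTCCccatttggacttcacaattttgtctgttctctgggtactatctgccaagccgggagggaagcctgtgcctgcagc
Ccr2, chr9:124101933-124102232, plus strand: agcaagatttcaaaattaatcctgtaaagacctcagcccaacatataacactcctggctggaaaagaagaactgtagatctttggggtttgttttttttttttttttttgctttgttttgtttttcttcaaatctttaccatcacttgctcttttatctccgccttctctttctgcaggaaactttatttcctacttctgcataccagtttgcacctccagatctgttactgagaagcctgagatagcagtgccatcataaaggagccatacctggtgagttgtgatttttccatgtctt
The composite element stood in the promoter of Cd209a, beginning 9 bases before the start, and in that of Fcgr2b, beginning 35 bases before it, each read on the opposite strand. Mgl2 held GAGGAA 225 bases before its start, and the Ccr2 window held neither motif. A gene can have several promoters in RefSeq. The composite letters occurred in 2.72% of 32851 promoters of this length, in 2.64% of the 8932 promoters of 6957 genes tested against Clec4a4 cDC2s, in 2.85% (11) of the 386 promoters of 294 genes that were higher in Cd209a cDC2s and in 1.60% (4) of the 250 promoters of 175 genes that were lower. GAGGAA occurred in 28.3%, 27.3%, 40.7% and 31.6% of the same sets of promoters. These shares are descriptions, and a match is not a bound site.

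Cd209a carried most of the selection. Of the 239 cells, 172 (72.0%) had UMIs of Cd209a alone, 31 (13%) of Cd209a and Clec10a, 11 (4.60%) of Cd209a and Mgl2, and 20 (8.37%) of all 3 lectins. The other 5 cells lacked Cd209a, with Clec10a alone in 3 of them and Mgl2 with Clec10a in 2. Cd209a stood at 973 and 956 CPM in replicates 1 and 2, against 129 and 129.6 CPM in all other cells. Mgl2 stood at 114 and 137 CPM and Clec10a at 91.9 and 65.5 CPM, but Mgl2 had a UMI in only 19 of 139 and 14 of 100 cells, and the 10 cells with the most of it held 84.3% and 95% of its UMIs. Clec10a had a UMI in 33 and 23 cells. These values chose the cells and were not tested. For both Mgl2 and Clec10a, the levels described a minority of the cells, as the plot of lectin UMIs per cell shows for the sum.

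**Figure D1:**
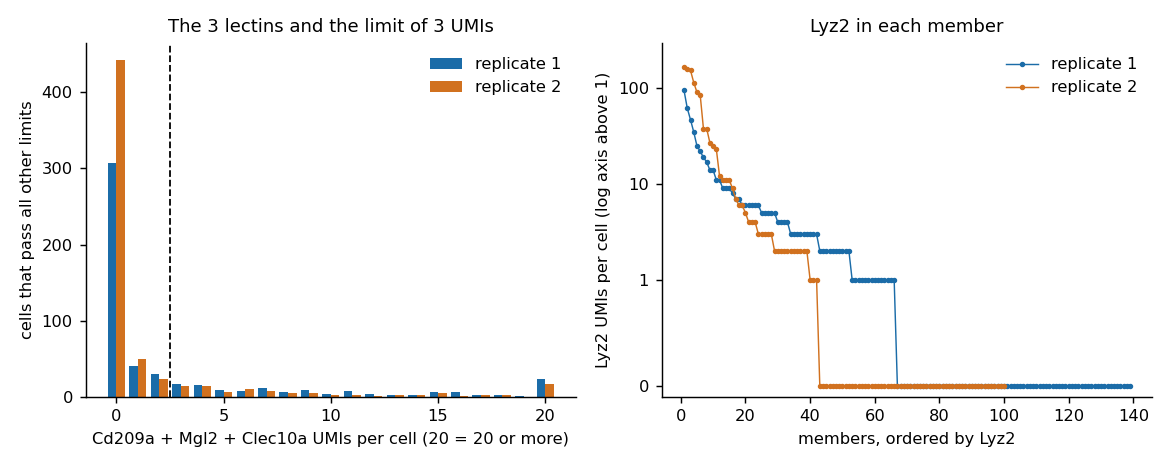
Left, number of cells that passed every other limit of the rule (y axis) by their summed Cd209a, Mgl2 and Clec10a UMIs (x axis, 20 standing for 20 or more), with a dashed line at the limit of 3 UMIs; most such cells had 0 lectin UMIs, 61 of the chosen cells had 3 or 4 and 178 had 5 or more. Right, Lyz2 UMIs in each of the 139 and 100 Cd209a cDC2s (log axis above 1), ordered from high to low, with 66 and 42 cells above 0 and 12 and 15 cells at 10 or more.

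Most cells with at least 3 lectin UMIs failed another limit of the rule. Any UMI of Clec4a4, Clec9a or Xcr1 left a cell out, so the counts describe the rule. Whether the cells left out were of another kind was not tested. In all, 1172 cells (18.3%) had at least 3 UMIs of the 3 lectins, and 239 of these (20.4%) passed the other limits. Clec4a4 was above 0 in 521 of them (44.5%), of which 309 failed no other limit, and Clec9a, the cDC1 receptor for dead cells, was above 0 in 495 (42.2%), of which 247 failed no other limit. The cells next to the limit differed from the bulk of those chosen. Just inside it, the 33 and 28 cells with 3 or 4 lectin UMIs had 23.1 and 144 CPM of Ccr2 and 33.0 and 45.6 CPM of Fcgr2b, and just outside it the 70 and 73 cells with 1 or 2 lectin UMIs had 77.3 and 53.5 CPM of Ccr2 and 96.2 and 56.6 CPM of Fcgr2b. The 106 and 72 cells with 5 or more had 245 and 266 CPM of Ccr2 and 251 and 308 CPM of Fcgr2b. Median depth differed along the same order, from 7733 and 8218 UMIs with 1 or 2 lectin UMIs to 8419 and 8719 with 3 or 4 and 10894 and 10364 with 5 or more. The part of depth in these values was not tested.

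Genes of cDCs and of cDC2s were transcribed in these cells. Flt3, the receptor for the growth factor of DCs, stood at 479 and 499 CPM, and Zbtb46, a transcription factor of the cDC lineage, at 229 and 194 CPM. Itgax, which encodes CD11c, stood at 908 and 807 CPM, Irf4, a transcription factor that cDC2s need, at 72.7 and 92.9 CPM and Sirpa, an inhibitory surface receptor of cDC2s, at 300.3 and 295 CPM. H2-Aa, an MHC class II chain, reached 13857 and 14325 CPM. In 13 cells that passed a classical monocyte gate (Ly6c2, F13a1 and Fn1 summing to at least 5 UMIs, with under 3 lectin UMIs), Flt3 was at 34.3 and 51.5 CPM, Zbtb46 was at 0 in both samples, and H2-Aa was at 103 and 515 CPM. Cells of a second gate (Ear2, Ace and Cd300e), described below, carried DC genes too, with Zbtb46 at 140 and 176 CPM and Sirpa at 384 and 412 CPM. Flt3, Zbtb46 and H2-Aa thus set the Cd209a cDC2s apart from the classical gate. The genes given here do not by themselves establish the cDC2 type.

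Lyz2, the macrophage and monocyte lysozyme that was given as a marker of these cells, was less clear. It stood at 383 and 1028 CPM, far above the 15.8 and 12 CPM of cDC2s with Clec4a4, but all other cells held 768 and 817 CPM, so in replicate 1 the Cd209a cDC2s were below the rest. A Lyz2 UMI was found in 66 of 139 and 42 of 100 cells, and the 12 and 15 cells with 10 or more held 66.5% and 91.9% of its UMIs. Of the 50-base words of Lyz2, 15.4% also occurred in Lyz1, its neighbour, which had 0.686 and 0.978 CPM. Lyz2 thus marked a minority of the Cd209a cDC2s and did not separate them from the other captured CD11c+ cells.

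To ask which genes set these cells apart from the cDC2s most like them, they were compared with 105 and 86 Clec4a4 cDC2s, which had at least 3 Clec4a4 UMIs, 0 UMIs of the 3 lectins and the same other limits. UMIs were summed per sample and group, and the 4 sums were tested with edgeR (quasi-likelihood, Benjamini-Hochberg adjusted p under 0.05). The 11 genes of the rule and Lyz2 were not tested. The 2 samples came from 1 run, and p-values measure the spread between these sums. A gate selects cells, so genes that go along with the lectins from cell to cell had to differ. Of 8746 genes, 377 (4.31%) were higher in Cd209a cDC2s and 238 (2.72%) lower, together 7.03%. Median depth was lower in the Cd209a cDC2s (10532 and 10201 against 11644 and 12209 UMIs per cell), and the part of depth was not tested.

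Monocyte genes were prominent among those higher. Of the 41 genes listed for classical monocytes, 26 were tested, 17 were higher and 1 was lower, while Lyz2 and 14 genes with low counts, such as Chil3 and Vcan, were not tested. The tested genes had a median log2 fold change of 0.88 against 0.00 over all genes tested. The chemokine receptor Ccr2, which lets monocytes leave the bone marrow, had 199 and 235 CPM in Cd209a cDC2s and 5.53 and 5.56 CPM in Clec4a4 cDC2s (log2 fold change 5.34 ± 0.27 (SE), adjusted p = 9.03e-10). Both samples of one group lay far above both of the other. The chemokine Ccl9 had 129 and 144 against 8.70 and 2.78 CPM (log2 fold change 4.57 ± 0.32 (SE), adjusted p = 5.74e-08), and its neighbour Ccl6 had 97.4 and 86 against 13.4 and 11.1 CPM (log2 fold change 2.97 ± 0.27 (SE), adjusted p = 1.20e-06). Csf1r, the receptor for the macrophage growth factor, had 217 and 266 against 53.8 and 90.7 CPM (log2 fold change 1.83 ± 0.20 (SE), adjusted p = 1.35e-05), a smaller difference on a level that the other cDC2s also held. Mpeg1, the pore-forming perforin-2 of phagocytes, had 229.7 and 262 against 45.1 and 53.7 CPM (log2 fold change 2.39 ± 0.18 (SE), adjusted p = 8.31e-08). Ahnak, a large scaffold protein, had 146 and 172 against 19 and 13.9 CPM (log2 fold change 3.33 ± 0.24 (SE), adjusted p = 6.32e-08), and Lgals3, the lectin galectin-3, had 235 and 260.1 against 54.6 and 74.1 CPM (log2 fold change 2.03 ± 0.18 (SE), adjusted p = 5.46e-07). The remaining list genes that were higher included Ifitm3, Vim, Ms4a6c, Clec4a3 and Tgfbi, at log2 fold changes between 0.66 ± 0.11 for Ms4a6c and 1.64 ± 0.19 for Clec4a3. The exception was S100a11, a calcium-binding protein, which had 1257 and 1172 against 1675 and 1994 CPM (log2 fold change -0.52 ± 0.095 (SE), adjusted p = 0.00181).

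Of the 16 tested genes listed for non-classical monocytes, 5 were higher and 1 was lower (median 0.11). Adgre4, an adhesion receptor related to F4/80, had 154 and 157 against 9.49 and 4.63 CPM (log2 fold change 4.48 ± 0.28 (SE), adjusted p = 1.26e-08). Cx3cr1, the fractalkine receptor, had 85 and 145 against 24.5 and 7.41 CPM (log2 fold change 2.85 ± 0.35 (SE), adjusted p = 4.63e-05), with a difference of 1.81 in replicate 1 and 4.08 in replicate 2. Ace, the angiotensin-converting enzyme, had 61.7 and 55.7 against 2.37 and 30.6 CPM, and its distance was made mostly by replicate 1 (log2 fold change 1.98 ± 0.49 (SE), adjusted p = 0.0166). Pglyrp1, an antibacterial peptidoglycan-binding protein, was lower, with 69.2 and 88 against 185 and 182 CPM (log2 fold change -1.16 ± 0.18 (SE), adjusted p = 3.74e-04).

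**Figure D2:**
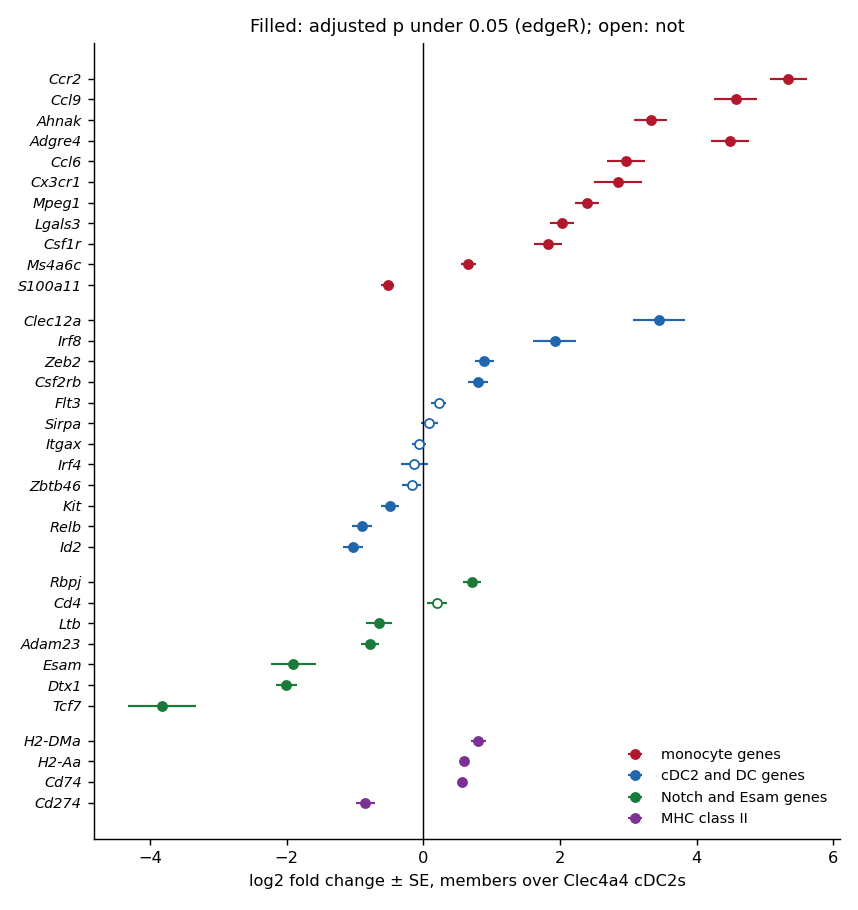
Log2 fold change ± SE (x axis) of UMI sums of Cd209a cDC2s over Clec4a4 cDC2s (2 samples each) for selected genes of 4 groups (y axis), filled where the adjusted p of edgeR was under 0.05 and open where not. Monocyte genes reach from -0.52 for S100a11 to 5.34 for Ccr2, the DC genes lie on both sides of 0, and Tcf7, Dtx1 and Esam lie at the left.

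Receptors and secreted factors formed a further group. Fcgr2b, the inhibitory Fc receptor for IgG, had 206 and 241 CPM against 5.53 and 13 CPM (log2 fold change 4.69 ± 0.27 (SE), adjusted p = 6.09e-09). Fcgr2b lies on chr1:170958617-170976547 (minus strand) and overlaps Gm38204, and 2.92% of its 50-base words also occur in Fcgr3. The activating Fc receptors Fcgr3 and Fcgr4 were lower in level but also higher than in Clec4a4 cDC2s, at log2 fold changes of 2.98 ± 0.63 and 2.99 ± 0.51. Of the 17 tested cytokines, chemokines and their receptors, 9 were higher and 1 was lower (median 0.86). Ccr2, Csf1r, Cx3cr1, Csf2ra and Csf2rb stand on this list as well as on another one. Il1b, the fever cytokine, had 1608 and 1790.4 against 632 and 815 CPM (log2 fold change 1.31 ± 0.11 (SE), adjusted p = 5.14e-07). Ccl3, which draws monocytes and T cells, had 150.2 and 169 against 27.7 and 92.6 CPM (log2 fold change 1.51 ± 0.31 (SE), adjusted p = 0.00468), and Cxcl16 had 52.8 and 39.1 against 5.53 and 2.78 CPM (log2 fold change 3.50 ± 0.41 (SE), adjusted p = 2.53e-05). Ccr6, the receptor for CCL20, was the one that was lower, at 2.74 and 12.7 against 55.3 and 37 CPM (log2 fold change -2.63 ± 0.46 (SE), adjusted p = 0.00112).

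Of 9 other lectin and uptake receptors tested, 3 were higher (Cd209c, Clec12a and Clec4a3) and none lower, with a median of 1.35. Cd209c, a paralogue of Cd209a, had 14.4 and 15.6 CPM and was at 0 in Clec4a4 cDC2s (at least 11.7-fold higher, the bound taken at 3 UMIs over the group, adjusted p = 8.40e-04). Cd209d, another paralogue, had 8 and 40 UMIs in the Cd209a cDC2s and 0 in the Clec4a4 cDC2s (at least 15.1-fold higher by counts), and these UMIs lay in 4 and 8 cells. Clec12a, an inhibitory lectin that senses uric acid crystals and is listed with the cDC2 genes, had 139.9 and 68.4 against 13.4 and 6.48 CPM (log2 fold change 3.45 ± 0.38 (SE), adjusted p = 9.86e-06).

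The other genes by which the largest increases were named were Wfdc17, Olfm1, Abca9 and Lilr4b. Wfdc17, a secreted protein of the whey acidic protein family, had 97.4 and 131 against 2.37 and 8.33 CPM. Olfm1, a secreted olfactomedin, had 123 and 146 against 7.91 and 12 CPM, and Abca9, a lipid transporter of the ABC family, had 115 and 111 against 9.49 and 11.1 CPM. Lilr4b, an immunoglobulin-like receptor of myeloid cells, had 52.8 and 59.6 against 5.53 and 4.63 CPM. Their log2 fold changes lay between 3.50 ± 0.36 for Lilr4b and 4.51 ± 0.37 for Wfdc17.

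Some genes of the Notch-dependent, Esam-high cDC2s went the other way. Of 13 tested, 4 were lower (Dtx1, Esam, Adam23 and Ltb) and 1 was higher (Rbpj), with a list median of 0.20. Dtx1, a ubiquitin ligase and Notch target, had 105 and 78.2 CPM in Cd209a cDC2s and 368 and 418 CPM in Clec4a4 cDC2s (log2 fold change -2.0 ± 0.15 (SE), adjusted p = 1.21e-07). Esam, the adhesion molecule that names the subset, had 15.1 and 12.7 against 43.5 and 68.5 CPM (log2 fold change -1.90 ± 0.33 (SE), adjusted p = 0.00109). Adam23, a catalytically inactive member of the ADAM family, had 623 and 433 against 929 and 997 CPM (log2 fold change -0.78 ± 0.13 (SE), adjusted p = 0.00102), and Ltb, a chain of lymphotoxin, had 93.2 and 69.4 against 134 and 138 CPM (log2 fold change -0.65 ± 0.19 (SE), adjusted p = 0.0435). Rbpj, the DNA-binding partner of Notch, had 275 and 249 against 168 and 170.4 CPM (log2 fold change 0.71 ± 0.13 (SE), adjusted p = 0.00224). Cd4 was at 227 and 266 against 206 and 245 CPM and did not pass the test (adjusted p = 0.511). Tcf7, which encodes the transcription factor TCF-1, had 0.686 and 6.84 against 53.8 and 46.3 CPM (log2 fold change -3.82 ± 0.50 (SE), adjusted p = 7.93e-05), and Ryr3, a calcium release channel, had 17.8 and 14.7 against 128 and 126 CPM (log2 fold change -2.86 ± 0.24 (SE), adjusted p = 3.08e-07). Ifitm1, an interferon-induced membrane protein, had 24 and 23.5 against 151 and 179 CPM (-2.71 ± 0.22), whereas its relative Ifitm3 was higher, with 959.9 and 968 against 527 and 633 CPM (0.81 ± 0.11).

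Most genes that define cDCs did not pass the test between both kinds of cDC2. Of 15 cDC2 core genes, 4 were higher (Clec12a, Zeb2, Csf2ra and Csf2rb) and 2 lower (Id2 and Relb), with a median of -0.06, and of 9 cDC lineage genes 1 was higher (Irf8) and 1 lower (Kit), with a median of -0.14. Flt3 (479 and 499 against 455 and 428 CPM), Zbtb46 (229 and 194 against 247 and 257 CPM), Itgax (908 and 807 against 946 and 945 CPM), Irf4, Klf4 and Sirpa did not pass the test, with adjusted p between 0.299 for Flt3 and 0.988 for Klf4. Zeb2, a repressor that cDC2s and monocytes need, had 304 and 373 against 204 and 179 CPM (log2 fold change 0.89 ± 0.14 (SE), adjusted p = 4.68e-04), and Irf8, needed by cDC1s and monocytes, had 45.9 and 56.7 against 12.6 and 15.7 CPM (log2 fold change 1.92 ± 0.31 (SE), adjusted p = 6.30e-04). Csf2ra and Csf2rb, both chains of the GM-CSF receptor, rose by log2 fold changes of 0.74 ± 0.11 and 0.81 ± 0.14. Id2, an inhibitor of E proteins, had 145 and 198 against 363 and 369 CPM (log2 fold change -1.03 ± 0.15 (SE), adjusted p = 1.83e-04), and Relb, a subunit of non-canonical NF-kappaB, had 258 and 178 against 406 and 460.2 CPM (log2 fold change -0.90 ± 0.15 (SE), adjusted p = 8.64e-04).

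Some genes of MHC class II presentation were higher. Of 17 tested, 6 were higher (H2-Aa, H2-Ab1, H2-Eb1, Cd74, H2-DMa and Ctss), 1 was lower (Cd274) and 10 did not pass the test, with a median of 0.33. H2-Aa had 13857 and 14325 CPM against 9546 and 10144 CPM (log2 fold change 0.60 ± 0.043 (SE), adjusted p = 6.32e-08), and Cd74, the invariant chain that guides class II molecules to the endosome, had 21227 and 21309.5 against 15606 and 14672 CPM (log2 fold change 0.57 ± 0.034 (SE), adjusted p = 7.96e-09). H2-DMa, which helps load the peptide, had 625 and 623 against 372 and 383 CPM (log2 fold change 0.80 ± 0.11 (SE), adjusted p = 1.15e-04), and the protease Ctss, which trims the invariant chain, rose by 0.49 ± 0.082. Cd274, which encodes the inhibitory ligand PD-L1, had 138 and 164 against 299 and 274 CPM (log2 fold change -0.85 ± 0.14 (SE), adjusted p = 8.06e-04). H2-DMb2 was at 691 and 626 against 904 and 720.3 CPM and did not pass the test (adjusted p = 0.328). The 17 genes together took 63546 and 63636 CPM in Cd209a cDC2s and 46051 and 46335 CPM in Clec4a4 cDC2s. Most of the sum in Cd209a cDC2s came from Cd74, H2-Aa, H2-Ab1 (13024 and 13030 CPM) and H2-Eb1 (9700 and 9325 CPM), so it says little about the other genes.

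Some genes of other cell types also moved. Of 6 cDC1 genes tested, 4 were higher in Cd209a cDC2s, among them Cadm1 (65.8 and 36.2 against 28.5 and 24.1 CPM), Naaa (54.9 and 58.7 against 30.8 and 26.9 CPM) and Cd8a (15.1 and 40.1 against 5.53 and 5.56 CPM), while Clec9a and Xcr1 were at 0 in both groups by the rule. Of 8 macrophage genes, Axl (17.1 and 13.7 against 2.37 and 0 CPM) and Cd68 (335 and 369.6 against 266 and 279.6 CPM) were higher and none was lower. The part of such cells in the result was not tested. Igkc and Ighm were lower, but 6554 of the 6561 Igkc UMIs of the Clec4a4 cDC2s of replicate 1 lay in 1 cell, and without it the log2 fold changes were 0.73 for Igkc and 0.24 for Ighm, in the opposite direction.

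To ask which monocyte genes the Cd209a cDC2s shared, their levels were set beside those of the 5 and 8 cells of the classical monocyte gate. With so few cells per sample this comparison was not tested. Of the 41 listed genes, 31 outside the gate and the rule had at least 10 UMIs in the gated cells of both samples, and each was expressed as percent of the monocyte level. At the low end, Vcan, Chil3, Hp, Thbs1, Gda and Mgst1 averaged under 1 percent. Chil3, a chitinase-like protein, had 0.686 and 7.82 CPM against 2556 and 1622 CPM in the gated monocytes, and Hp, haptoglobin, had 0 and 2.93 against 635 and 270.3 CPM. Of the genes of the gate itself, Fn1 was at 4.11 and 7.82 against 2831 and 1622 CPM (0.145% and 0.482%) and Ly6c2 at 8.91 and 38.1 against 2093 and 1956 CPM (0.426% and 1.95%).

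A second tier stood between 1 and 10 percent, and included Ccr2, Fcgr3, Cd14, Cebpb and Ccl6. Ccr2, the gene that was so far above Clec4a4 cDC2s, reached only 6.40% and 7.26% of the monocyte level (199 and 235 against 3105 and 3231 CPM). Cd14, the co-receptor for lipopolysaccharide, had 6.86 and 4.89 against 566 and 412 CPM. In 16 genes the level was 10 to 50 percent of that of the monocytes. These included Csf1r (23.8% and 31.3%), Ccl9 (12.7% and 14.0%), Lgals3 (16.5% and 20.6%), Ms4a6c (26.3% and 32.5%) and Ifitm3 (32.5% and 25.2%). Only 3 genes averaged over 50 percent, namely S100a4 (58.1% and 67.5%), S100a11 (126% and 253%) and Clec4a1 (67.3% and 50.1%). S100a4, a calcium-binding protein, had 509 and 512 CPM against 490.2 and 512 CPM in Clec4a4 cDC2s, a difference that did not pass the test (0.11 ± 0.11, adjusted p = 0.699). Clec4a1 had 346 and 368 against 262 and 321 CPM in Clec4a4 cDC2s and did not pass it either. S100a11 was lower than in Clec4a4 cDC2s, as given above. Lyz2 in the gated monocytes was 31705 and 32385 CPM.

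**Figure D3:**
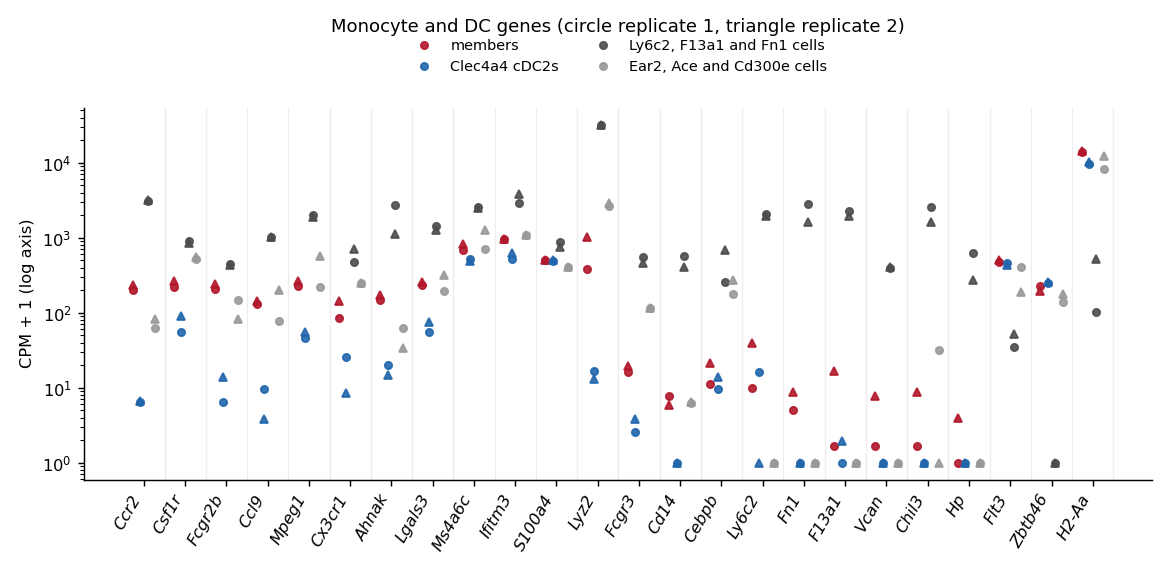
CPM + 1 (y axis, log scale) of monocyte genes and of 3 DC genes (x axis) in Cd209a cDC2s, Clec4a4 cDC2s, cells of the Ly6c2, F13a1 and Fn1 gate and cells of the Ear2, Ace and Cd300e gate, with circles for replicate 1 and triangles for replicate 2. From Ccr2 to Lgals3 the Cd209a cDC2s lie between the Clec4a4 cDC2s and the gated classical monocytes, and for Vcan, Chil3 and Hp they lie near 0.

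A second gate (Ear2, Ace and Cd300e summing to at least 3 UMIs) held 17 and 19 cells, which carried DC genes as well, with Flt3 at 405 and 187 CPM, Itgax at 918 and 1049.8 CPM and H2-Aa at 8361 and 12454 CPM. Their Ccr2 level of 62.2 and 82.4 CPM was below that of the Cd209a cDC2s (199 and 235 CPM), and their Csf1r level of 524 and 561 CPM was above it (217 and 266 CPM). With the cells of both gates pooled (22 and 27 cells, a test added after the data had been seen), 162 of 7419 genes differed (2.18%), 18 higher in Cd209a cDC2s (0.243%) and 144 lower (1.94%). With the sample as a block the counts were 30 higher and 163 lower. Of 36 classical monocyte genes tested, none was higher and 22 were lower (median -1.64 against -0.01 over all genes), and of 16 non-classical ones 11 were lower and none higher. Both gates chose cells by monocyte transcripts, so genes that go along with these had to be lower in the Cd209a cDC2s. These list counts therefore describe the gates as well. Ccr2 (-2.04 ± 0.21, adjusted p = 0.00198), Csf1r (-1.37 ± 0.19, adjusted p = 0.00758) and Ccl9 (-1.44 ± 0.25, adjusted p = 0.0222), all above Clec4a4 cDC2s, were below the cells of both gates summed. In the second gate alone, Ccl9 was at 77.8 and 198 CPM, on either side of the 129 and 144 CPM of the Cd209a cDC2s, and in the classical gate at 1012 and 1029.7 CPM. For Ccr2 and Ccl9 the lower level thus held against the 5 and 8 cells of the classical gate and not against the second gate in both samples, while Csf1r was below both gates. Of 17 genes of MHC class II presentation, 7 were higher and none lower (median 0.86), among them H2-Ob (332 and 311 CPM, 1.52 ± 0.22) and Cd74 (0.86 ± 0.13). Flt3 and Zbtb46 did not pass this test (adjusted p = 0.113 and adjusted p = 0.129). This comparison and the one with Clec4a4 cDC2s use the same sums of Cd209a cDC2s and are not independent.

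Per cell, UMIs of Ccr2, Fcgr2b and Ccl9 lay in a minority of the Cd209a cDC2s, and most cells held a minority of the classical monocyte genes. Over all UMIs of the cells, the 10 cells with the most Ccr2 held 52.4% and 61.25% of it. For Fcgr2b this share was 43.3% and 51.2%, for Ccl9 46.3% and 51.0% and for Csf1r 34.8% and 48.2%. With every cell thinned to 5000 UMIs and shallower cells left out (5 and 2 Cd209a cDC2s), a Cd209a cDC2 held a median of 12 and 13 of the 41 classical monocyte genes (range 5 to 22 and 5 to 35). The median was 9 and 9 in a Clec4a4 cDC2, 5 and 5 in a T cell, and 34 and 33 in a gated monocyte. At that depth, Ccr2 had a UMI in 26.9% and 32.7% of Cd209a cDC2s and in 0.952% and 1.18% of Clec4a4 cDC2s, with 13.6% and 10.2% of T cells (median 5923 and 6395 UMIs before thinning) as cells of another lineage. Fcgr2b had a UMI in 34.3% and 40.8% of Cd209a cDC2s against 2.86% and 2.35% of Clec4a4 cDC2s and 4.55% and 1.80% of T cells. For Ccl9 the shares were 29.9% and 29.6%, 1.90% and 1.18% and 0% and 1.2% in the same order. Csf1r was wider, with 47% and 55.1%, 20% and 25.9% and 6.82% and 6.59%. All gated monocytes (5 and 8) had UMIs of Ccr2, Ccl9 and Csf1r. Ly6c2 had a UMI in 1.49% and 7.14% of Cd209a cDC2s, below the 25% and 31.7% of T cells. The T cells were chosen by at least 3 UMIs of Cd3d, Cd3e and Cd3g together, with no limit on DC genes. They held Clec9a at 305 and 41.2 CPM, and Flt3 had a UMI in 25% and 12.6% of them. Their shares are thus no measure of background.

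A UMI of any of 7 core monocyte genes (Ly6c2, F13a1, Fn1, Vcan, Chil3, Hp and Thbs1) was found in 12 of 139 and 11 of 100 Cd209a cDC2s, and 5 or more in 1 and 3 cells. A single cell of replicate 2 held 54 of these UMIs, with 17 of Ly6c2, 13 of F13a1 and 8 of Chil3, besides 159 of Lyz2, 33 of Ccr2 and 6 of Cd209a, and no UMI of Flt3 or H2-Aa. This cell had 7325 UMIs and was not called a doublet. It had entered by the lectin rule while its other transcripts were those of the gated monocytes.

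The cells with the most Lyz2 differed from the others in level, which is given as a description because Lyz2 chose them. The 12 and 15 cells with 10 or more Lyz2 UMIs had 450 and 576 CPM of Ccr2 and 610 and 749 CPM of Csf1r, against 173 and 159 CPM and 176 and 159 CPM in the 127 and 85 cells with fewer. Flt3 was 298 and 339 CPM against 497 and 534 CPM, and H2-Aa was 17118 and 16141 CPM against 13517 and 13922 CPM. Without the Lyz2 cells, the log2 fold changes over Clec4a4 cDC2s were 4.95 ± 0.28 (SE) for Ccr2, 4.53 ± 0.29 for Fcgr2b, 4.30 ± 0.34 for Ccl9 and 1.30 ± 0.22 for Csf1r, all still past the threshold, and Fcgr3 no longer passed it (2.20 ± 0.72 against 2.98 ± 0.63 with them, adjusted p = 0.108, edgeR). Of the 615 calls of either direction, 445 remained.

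Against all 6154 other cells, monocyte genes and MHC class II genes were again among those higher. Of 14653 genes, 531 (3.62%) were higher and 870 (5.94%) lower, together 9.56%, and with the sample as a block the counts were 879 and 1529. Of 40 classical monocyte genes, 13 were higher and 7 lower (median 0.22 against -0.08 over all genes). Ccl9 had 129 and 144 CPM against 28.9 and 32.1 CPM (log2 fold change 2.18 ± 0.12 (SE), adjusted p = 7.85e-04), Ccr2 had 199 and 235 against 83.9 and 91.4 CPM (log2 fold change 1.33 ± 0.11 (SE), adjusted p = 0.00268) and Ms4a6c had 677 and 815 against 312 and 309.8 CPM (log2 fold change 1.29 ± 0.10 (SE), adjusted p = 0.00199). Those that were lower, such as Mpeg1 (229.7 and 262 against 1056 and 996 CPM), Cd14 (6.86 and 4.89 against 55.8 and 36.4 CPM) and Fcgr3, are genes that macrophages express as well. Among the named genes with at least 50 CPM, wide log2 fold changes were also found for the unannotated genes Gm16553, Gm9733 and Gm5431 and for Skint3, a membrane protein of the immunoglobulin family (253 and 213 against 69.9 and 52.7 CPM).

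Further genes above the rest of the captured cells had known roles in myeloid cells. Mcemp1, a membrane protein of mast cells and monocytes, had 179.6 and 194 against 55.1 and 58.2 CPM (log2 fold change 1.75 ± 0.10 (SE), adjusted p = 8.18e-04). Plaur, the receptor for urokinase, had 133 and 139 against 32.3 and 51.1 CPM, and Atf3, a stress-induced transcription factor, had 320.2 and 409 against 95.7 and 129 CPM (1.72 ± 0.18). Il1b had 1608 and 1790.4 against 635 and 687 CPM (log2 fold change 1.39 ± 0.080 (SE), adjusted p = 0.001), while Il1r2, the decoy receptor for the same cytokine, had 122 and 181 against 49 and 63.1 CPM (log2 fold change 1.44 ± 0.21 (SE), adjusted p = 0.0111). Itgam, which encodes CD11b, had 162 and 172 against 58.5 and 50.4 CPM (log2 fold change 1.64 ± 0.12 (SE), adjusted p = 0.00164). Of 15 cDC2 core genes 5 were higher and 2 lower (median 0.46), and of 17 genes of MHC class II presentation 11 were higher and none lower (median 0.49), with H2-Aa at 0.61 ± 0.062. Of 10 interferon response genes 3 were higher (Oasl2, Usp18 and Isg15) and none lower, with a median of 0.58, and Oasl2 had 107 and 94.8 against 38.4 and 37.1 CPM.

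Most lists of other cell types had members that were lower. The rule set limits on genes of macrophages, cDC1s, pDCs, mature DCs and dividing cells, and for those lists the counts describe the gate, whereas it set none on NK, erythroid, B, T, neutrophil or basophil genes. Of 15 macrophage genes 11 were lower, of 9 cDC1 genes 8, of 10 cell cycle genes 9, of 8 mature DC genes 4 and of 6 NK genes 4, and none of these lists had a member that was higher. Irf8, the cDC1 transcription factor, had 45.9 and 56.7 CPM against 779 and 827 CPM (log2 fold change -3.96 ± 0.11 (SE), adjusted p = 1.29e-04). For this gene the Cd209a cDC2s thus stood above Clec4a4 cDC2s and far below the other captured CD11c+ cells. Those hold the cDC1s that the rule left out, with Clec9a at 590 and 560 CPM. Of 5 erythroid genes 4 were lower, of 7 B cell genes 3 and of 7 tested pDC genes 1, again with none higher. Of 6 T cell genes and 8 neutrophil genes none passed the test in either direction, and the 5 basophil genes were at 0 in the Cd209a cDC2s.

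Within the Cd209a cDC2s, 44 genes differed with the level of the lectins, most of them no longer at a higher limit of the rule. Each sample was split at its own median of lectin UMIs per 10000 UMIs, giving 69 and 50 lectin-high and 70 and 50 lectin-low cells, with Cd209a at 1571 and 1494 and 445 and 443 CPM. The split used the lectins of the rule, and the lectin-low cells included 32 and 28 cells with 3 or 4 lectin UMIs, next to the limit, against 1 and 0 among the lectin-high cells. Of 7106 genes, 33 were higher in the lectin-high cells (0.464%) and 11 lower (0.155%), together 0.619%, and with the sample as a block 60 were higher and 42 lower. With a limit of 6 lectin UMIs in place of 3, which leaves fewer cells, 2 genes were higher and 2 lower, and 3 of the 44 calls remained, namely Fcgr2b (1.56 ± 0.22, adjusted p = 0.00249), Tbc1d4 (-1.32 ± 0.17, adjusted p = 0.00172) and Cd74 (0.26 ± 0.046, adjusted p = 0.0446). Ccr2 (0.99 ± 0.22, adjusted p = 0.125), Ccl9 (0.99 ± 0.30, adjusted p = 0.372) and Ahnak (1.15 ± 0.29, adjusted p = 0.192) no longer passed the test there. At the limit of 3, of 26 classical monocyte genes 9 were higher and none lower (median 0.61 against 0.00 over all genes), namely Fcgr3, Ahnak, Ccl9, Ccr2, Ccl6, Clec4a3, Lgals3, Vim and Ifitm3. Ccr2 had 323 and 353 CPM in lectin-high and 89.1 and 122 CPM in lectin-low cells (log2 fold change 1.72 ± 0.21 (SE), adjusted p = 1.28e-04). Fcgr2b had 310.0 and 407 against 114 and 82.1 CPM (log2 fold change 1.87 ± 0.22 (SE), adjusted p = 1.07e-04), Ccl9 had 225 and 208 against 43.9 and 82.1 CPM (log2 fold change 1.86 ± 0.27 (SE), adjusted p = 9.03e-04) and Ahnak had 272 and 296 against 34.9 and 53.5 CPM (log2 fold change 2.75 ± 0.25 (SE), adjusted p = 3.52e-06). For all 4 genes the lectin-low cells of both samples lay below both lectin-high values and above the Clec4a4 cDC2s. The gates themselves set this order of lectin UMIs, with 0 in the Clec4a4 cDC2s, so it is a description and no separate evidence. Ace (111 and 78.1 against 18.1 and 34.4 CPM, log2 fold change 1.95 ± 0.36 (SE), adjusted p = 0.0108) and the lectin Cd209c (log2 fold change 3.54 ± 0.76 (SE), adjusted p = 0.0316) also went with the lectin level.

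Few DC genes were called. Of 15 cDC2 core genes only Zeb2 was higher (398 and 479 against 221 and 271 CPM, log2 fold change 0.87 ± 0.17 (SE), adjusted p = 0.0226), of 17 genes of MHC class II presentation only Cd74 (22476 and 22521 against 20125 and 20154 CPM, log2 fold change 0.19 ± 0.041 (SE), adjusted p = 0.0341), and none of either list was lower. Of 9 cDC lineage genes none passed the test, and Flt3 was at 532 and 419 CPM in lectin-high and 431 and 575 CPM in lectin-low cells (-0.04 ± 0.16, adjusted p = 0.991). Csf1r (0.32 ± 0.20, adjusted p = 0.758) and Il1b (0.28 ± 0.12, adjusted p = 0.554) did not pass it either. Among the genes that were lower in lectin-high cells were Adam23 (352 and 329 against 862 and 533 CPM, log2 fold change -1.01 ± 0.18 (SE), adjusted p = 0.00863), Tbc1d4, a regulator of glucose transporter traffic (409 and 284 against 781 and 762 CPM, log2 fold change -1.11 ± 0.16 (SE), adjusted p = 9.03e-04), and Immp2l, a mitochondrial peptidase subunit (43.9 and 24 against 201 and 107 CPM, log2 fold change -2.13 ± 0.34 (SE), adjusted p = 0.00299). Adam23 and Tbc1d4 were also lower in Cd209a cDC2s than in Clec4a4 cDC2s, at -0.78 ± 0.13 and -1.10 ± 0.11, a comparison that shares cells with this one. Dtx1 differed by -1.11 ± 0.28 and did not pass the test (adjusted p = 0.0876). Fscn1, the actin bundler of mature DCs, and H2-M2 were lower too, but each had UMIs in few cells, and 44 of the 51 H2-M2 UMIs of replicate 2 lay in 1 cell.

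**Figure D4:**
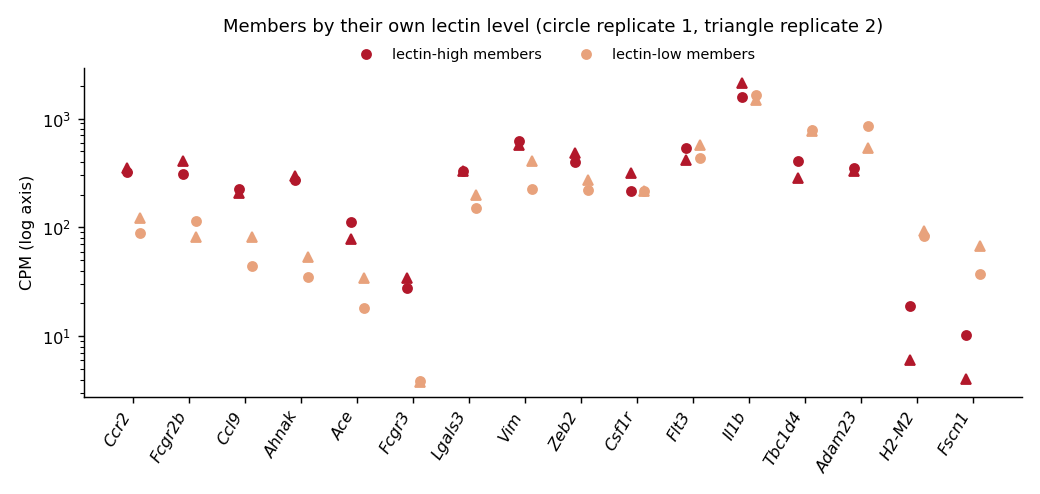
CPM (y axis, log scale) of selected genes (x axis) in lectin-high and lectin-low Cd209a cDC2s, with circles for replicate 1 and triangles for replicate 2. Ccr2, Fcgr2b, Ccl9 and Ahnak lie higher in the lectin-high cells of both samples, Flt3 and Csf1r overlap, and Tbc1d4, Adam23, H2-M2 and Fscn1 lie lower.

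The shares of cells with a UMI differed between both groups for some monocyte genes and overlapped for others. At 5000 UMIs, Ccr2 was found in 40.9% and 46% of lectin-high and 13.2% and 18.8% of lectin-low cells. The lectin-low shares were above the 0.952% and 1.18% of Clec4a4 cDC2s and close to the 13.6% and 10.2% of T cells, which are no measure of background. Ccl9 was found in 45.5% and 42% of lectin-high and 14.7% and 16.7% of lectin-low cells. Csf1r was found in 45.5% and 58% of lectin-high and 48.5% and 52.1% of lectin-low cells, and Ly6c2 in 2 of 66 and 3 of 50 lectin-high and 0 of 68 and 4 of 48 lectin-low cells (the 0 allows a share of up to 4.41%, or 3 of 68 cells), and for both genes the groups overlapped. Flt3 was found in 87.9% and 74% and 82.4% and 85.4%, and Zbtb46 in 60.6% and 46% and 55.9% and 58.3%, against 9.09% and 10.2% of T cells. A median of 14 and 14.5 classical monocyte genes was found in a lectin-high cell and of 11 and 12 in a lectin-low cell.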

How the data were processed

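The authors enriched splenic CD11c+ cells with magnetic beads, tagged the samples, captured single cells on the BD Rhapsody system and then made the deposited UMI counts per gene and cell (BD Rhapsody WTA Analysis Pipeline 1.12.1) on GRCm38 with PhiX and GENCODE M19, with intronic reads counted and molecule errors corrected. R 4.2.3 and Seurat 4.3.0.1 are named in the submitters' processing notes. The deposited values are raw counts, without normalization. Mice of the run's other sample tags were not analysed here.

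Cells were chosen by the limits given above, and UMIs were summed per sample and group. The cells, the gates and the gene lists were chosen with earlier results of these data known. The text names genes of 20 marker lists and of the rule. It also names, for each test, up to 10 genes each way that passed the threshold with the widest fold change, moved alike in both replicates and reached 50 CPM in one of the groups; the few others it names were chosen after their values were seen. A few genes named by this rule or held in the lists are not reported here. Sums were tested with edgeR 4.0.16 (TMM scaling, filterByExpr, glmQLFit and glmQLFTest) in R 4.3.3 with Benjamini-Hochberg adjustment at 0.05, and the SE was taken as log2 fold change over the square root of F. DESeq2 1.42.0, other size factors, no filter, the sample as a block, the study's cell filter, Scrublet (scanpy 1.11.5) and other limits of the rule were alternatives. The tests were tried on simulated counts. Groups of the same number came from the same sample, which pairs them, and the correlation of their deviations from the group means was between 0.0742 and 0.128. Tests against either monocyte gate alone were planned and were not run, since each gate held under 20 cells in a sample. Between the replicates, UMI sums of the Cd209a cDC2s differed by more than counting error (chi-square per degree of freedom 2.23), so they were kept as 2 samples. Depth was 1458505 and 1022689 UMIs in the Cd209a cDC2s. Intervals are Clopper-Pearson at 95% and cover counting error only. For shares of cells, each cell was thinned to 5000 UMIs.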

Additional observations from a re-analysis of the deposited data

How the results depend on the processing

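The limits are 2 samples from 1 run, few monocytes for comparison and low UMI counts per cell, so genes such as Vcan or Hp are known only to a few UMIs. Of 3013 values of single genes under the alternatives, 2763 counted as kept, 133 lost the threshold, 7 gained it, 99 moved when a sample was left out and 11 turned direction. Kept meant the same direction and side of the threshold, except where a sample was left out. Those values (232 kept without replicate 1 and 246 without replicate 2) had no p-value. They counted as kept when within the SD between the replicates of the joint value, a limit that widens as the replicates differ. The 11 were Cd4 (-0.0859), Sirpa (-0.0461) and Irf4 (0.00953) over Clec4a4 cDC2s without Cd209a cDC2s of 10 or more Lyz2 UMIs, Irf4 (0.00885), Itgax (0.0167) and Klf4 (0.0417) with a wider Clec4a4 gate, Klf4 with the replicate block (0.00378) and with at least 6 lectin UMIs (0.0438), Igkc (0.73) and Ighm (0.24) without 1 cell rich in Igkc, and Ighm without replicate 1 (0.27, and -3.52 without replicate 2). Apart from Igkc and Ighm, none of these passed the threshold. The settings that left out the Lyz2-rich cells or the Igkc-rich cell, and the test against both monocyte gates together, were chosen after seeing the data.

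Over all other cells, DESeq2 called 870 genes higher and the replicate block 879 higher and 1529 lower. Over Clec4a4 cDC2s, DESeq2 called 212 higher and 110 lower, 322 of the 615 calls of edgeR, and the block kept all 615. Over both monocyte gates, genes higher numbered 11 with DESeq2, 162 without a filter on low counts (274 lower), 30 with the block and 28 without Lyz2-rich cells. For lectin-high cells, DESeq2 called 13 higher and 6 lower, no filter 53 and 32, the block 60 and 42, and at least 6 lectin UMIs 2 and 2. The study's cell filter kept 1005 of the 1401 calls over all other cells. The block changed no other call count by over 1.5 times. The cause was not tested, except that a higher limit and fewer cells lower the UMI sums by construction. The share of Cd209a cDC2s was 2.54% with at least 6 lectin UMIs and 5.13% after thinning to 5000 UMIs. Without thinning, the mean shares with a UMI were 34.0% for Ccr2, 45.2% for Fcgr2b, 34.8% for Ccl9, 59.6% for Csf1r, 44.7% for Lyz2, 92.3% for Flt3 and 71.1% for Zbtb46.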
